A study of Homo sapiens with 10 samples.

Results

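The 10 receptor tyrosine kinase genes, ALK, LTK, EGFR, ERBB2, ERBB3, ERBB4, KIT, RET, PDGFRA and IGF1R were followed in human embryonic stem cells given a WNT signal. They were taken by gene symbol, as 10 of the 35940 symbols in the count table, and each symbol stood for 1 Ensembl identifier. The list was chosen from a reading of these same data in which ALK had already stood out as higher after 18 h of CHIR99021 than in untreated cells. For that reason the values of CHIR99021 at 18 h against mTeSR1 are given below as a description, with no test. The other comparisons with mTeSR1 share its 2 libraries with that one, and those of CHIR99021 18 h with WNT3A 18 h or CHIR99021 6 h share its other 2 libraries, so none of these is independent support for it.

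Receptor tyrosine kinases are single-pass membrane proteins that bind a secreted or membrane-bound ligand outside the cell and phosphorylate tyrosines inside it, which recruits adaptor proteins and feeds the RAS-MAPK and PI3K-AKT routes. ALK and its close relative LTK bind the ALKAL ligands. EGFR, ERBB2, ERBB3 and ERBB4 form 1 family, in which ERBB2 has no known ligand of its own and ERBB3 has little kinase activity, so that both work in pairs with other members. KIT binds the stem cell factor KITLG, PDGFRA the platelet-derived growth factors, IGF1R the insulin-like growth factors, and RET the GDNF family together with a GFRA co-receptor. WNT3A acts through Frizzled and LRP receptors to stabilise beta-catenin, and CHIR99021 inhibits the kinase GSK3, which otherwise marks beta-catenin for destruction.

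The cells were ESI017, an established human embryonic stem cell line with the genotype given as WT, and all groups stayed in mTeSR1, a defined medium for pluripotent cells. The 5 groups held 2 libraries each: WNT3A at 300 ng/ml for 6 h, WNT3A at 300 ng/ml for 18 h, CHIR99021 at 8 µM for 6 h, CHIR99021 at 8 µM for 18 h, and untreated cells in mTeSR1. Each group had 1 library from each of 2 biological repeats, except that both CHIR99021 18 h libraries came from repeat 2, and the labels do not say whether those were separate wells. No group with the solvent of CHIR99021 alone and no collection time for the untreated cells is given in the labels. Library totals lay between 16600000 and 26700000 estimated counts, which puts 3 counts at 0.112 to 0.18 CPM, counts scaled to library size with trimmed-mean factors (TMM). Markers of pluripotent cells fitted the label: all 10 of 10 averaged at least 1 CPM in every group, with sums of 8290 to 10300 CPM in the treated libraries and 11100 CPM in both mTeSR1 libraries. Replicate 2 of WNT3A 6 h and replicate 2 of mTeSR1 stood apart: their deviation from the gene means rose with transcript length (Spearman's rho 0.448 for the WNT3A 6 h library and 0.349 for the mTeSR1 library, against -0.293 to -0.013 in the other 8 libraries, across 15142 genes, which are not independent replicates).

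Start-site sequences of 9 of the 10 genes were found in the RefSeq table of GRCh38.p14, in windows of 250 bases before to 50 bases after an annotated start. Those of ALK and RET, which lay above mTeSR1 in all treated libraries, and of PDGFRA, which lay below it in all of them, are printed 5′ to 3′ on the strand of the gene. ERBB2 also lay below mTeSR1 in all treated libraries, and its window, with a GC content of 60.7%, is not printed. How many of all genes lie wholly above or below mTeSR1 in this way was not counted. Such separation is therefore only a description, here and below. Capitals mark the POU octamer, spelled ATTTGCAT, the sequence that OCT4 and related factors are known to bind. It was looked for after it was noticed in the ALK window.
ALK, chr2:29921537-29921836, minus strand: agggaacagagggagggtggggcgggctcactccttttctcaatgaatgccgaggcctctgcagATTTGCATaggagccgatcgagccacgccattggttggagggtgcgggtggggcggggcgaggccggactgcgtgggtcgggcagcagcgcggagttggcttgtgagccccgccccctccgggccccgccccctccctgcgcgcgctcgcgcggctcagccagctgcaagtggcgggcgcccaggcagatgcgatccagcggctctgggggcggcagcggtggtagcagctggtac
RET, chr10:43076819-43077118, plus strand: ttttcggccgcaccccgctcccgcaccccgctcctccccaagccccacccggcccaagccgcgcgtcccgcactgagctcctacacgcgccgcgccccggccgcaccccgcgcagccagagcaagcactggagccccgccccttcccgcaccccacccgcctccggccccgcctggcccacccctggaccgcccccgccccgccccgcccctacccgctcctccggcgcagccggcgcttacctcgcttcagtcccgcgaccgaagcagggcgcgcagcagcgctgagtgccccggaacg
PDGFRA, chr4:54229043-54229342, plus strand: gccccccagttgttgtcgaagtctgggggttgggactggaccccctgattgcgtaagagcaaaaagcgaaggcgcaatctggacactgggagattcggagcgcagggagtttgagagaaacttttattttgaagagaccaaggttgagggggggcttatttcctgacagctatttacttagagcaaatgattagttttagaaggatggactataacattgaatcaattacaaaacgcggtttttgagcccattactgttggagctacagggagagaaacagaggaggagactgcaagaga

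The table holds 2 windows for each of these 3 genes, and the one farther upstream is printed. The GC content of the printed windows was 71.0% for ALK, 78.7% for RET and 47.0% for PDGFRA, against a median of 58.7% over all 35116 windows of that length. The windows not printed had 53.0% for ALK, 58.7% for RET and 66.7% for PDGFRA, so the order of the genes depends on the start taken. The octamer began at position -186 from the ALK start, was found in 1 of the 13 windows of the listed genes, and occurred on either strand in 1.77% of all windows. The core of the TCF/LEF motif, CTTTGA, read on both strands, was in 0 of the 13 windows and in 12.9% of all windows. These are matches of letters in short windows and say nothing about binding.

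On GRCh38 ALK spans chr2:29192774-29921566 on the minus strand, ERBB2 chr17:39687914-39730426, PDGFRA chr4:54229097-54298247 and RET chr10:43077027-43130351, the last 3 on the plus strand. ALK had the widest range of the 8 genes that passed the filter on low counts. It is a neural receptor in normal development, known as an oncogene in lymphoma, lung cancer and neuroblastoma. Its level was 4.53 and 2.95 CPM after 6 h of WNT3A, 13.1 and 7.83 CPM after 18 h of WNT3A, 2.76 and 1.73 CPM after 6 h of CHIR99021, and 9.49 and 15.3 CPM after 18 h of CHIR99021, against 0.418 and 0.397 CPM in mTeSR1. The mTeSR1 values rest on 8 and 7 counts, above the floor of 3, while all 8 treated libraries lay above both untreated ones. Within each compound, both 18 h libraries lay above both 6 h libraries.

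**Figure D1:**
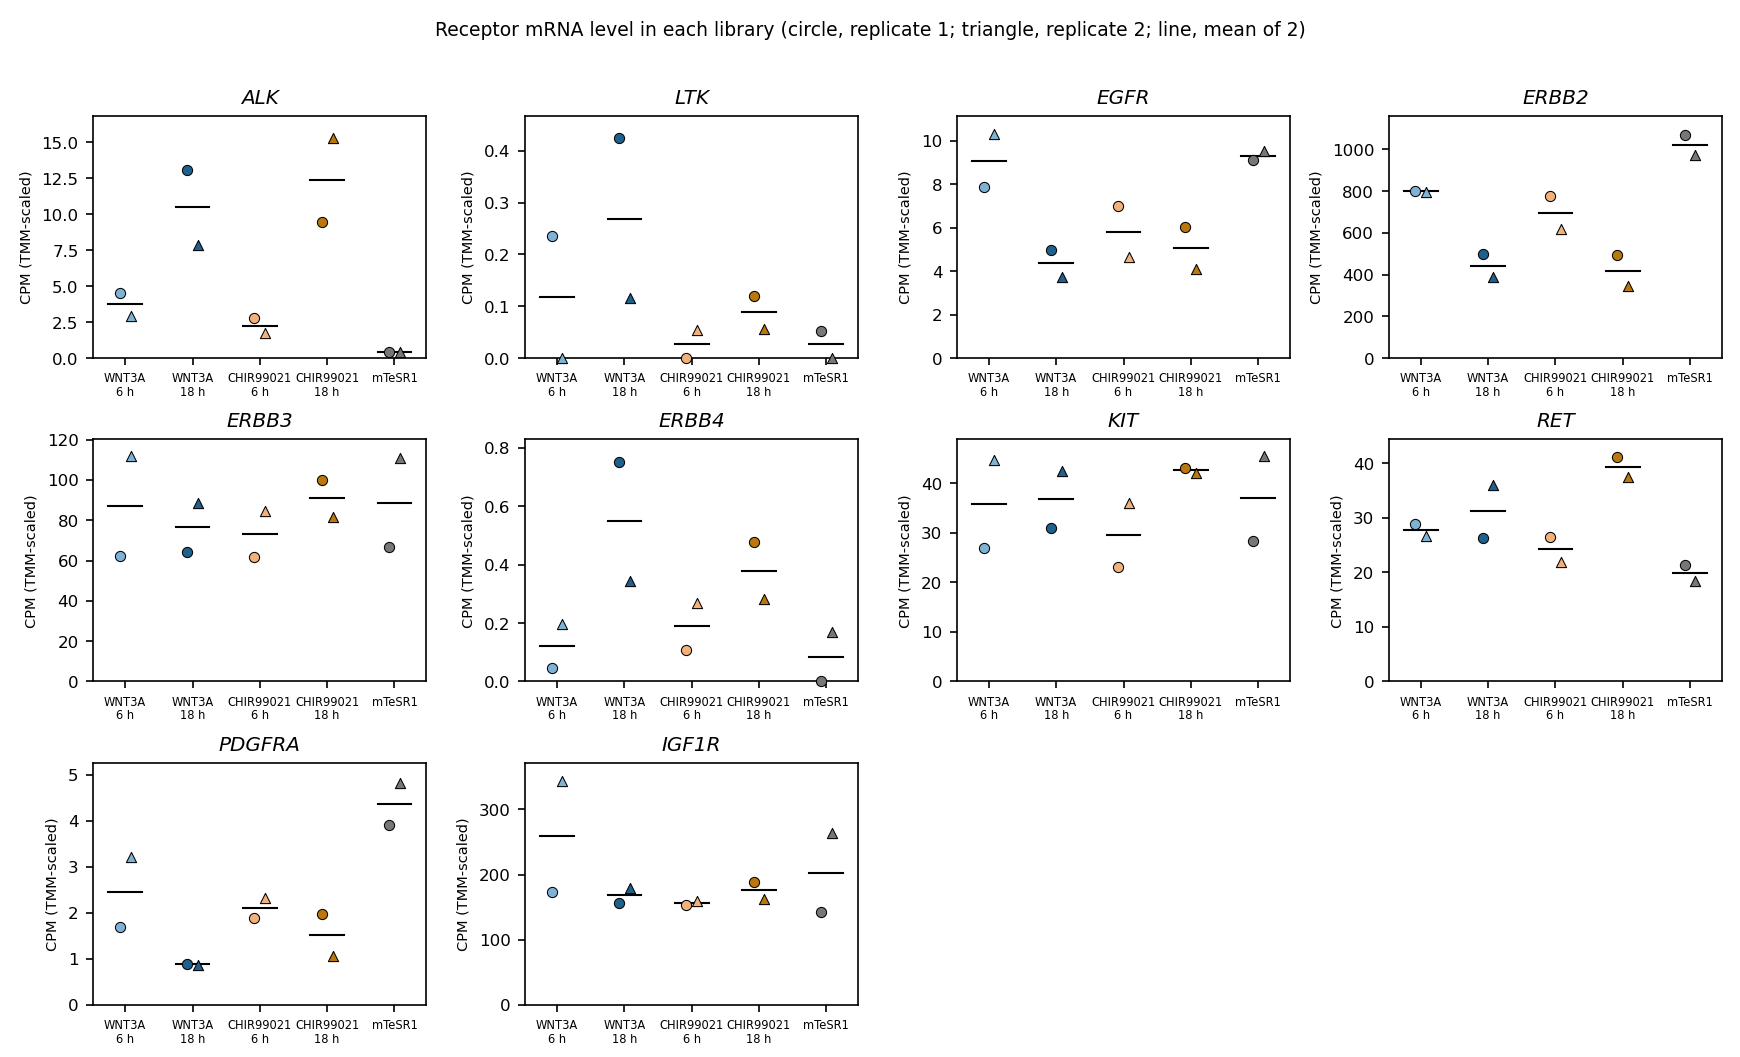
Level of each receptor gene in CPM (linear axes from 0, a scale of its own in each panel) in the 5 groups, with 1 point per library and a line at the mean of 2. ALK is lowest in mTeSR1, at 0.418 and 0.397 CPM, and ERBB2 is highest there, at 1070 and 971 CPM.

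With WNT3A, ALK rose at both times. In the edgeR quasi-likelihood fit of 15251 genes the log2 fold change was 3.17 at 6 h (SE 0.48, 95% interval 2.08 to 4.26, adjusted p = 0.034) and 4.66 at 18 h (SE 0.48, 95% interval 3.57 to 5.76, adjusted p = 0.0048), which are 9.01-fold and 25.3-fold the untreated level. The change at 18 h kept an adjusted p of at most 0.046 in 19 alternative analyses and was 4.97 within repeat 1 and 4.30 within repeat 2. The change at 6 h was 3.44 within repeat 1 and 2.89 within repeat 2. Its call was lost when either mTeSR1 library, either CHIR99021 6 h library or replicate 1 of WNT3A 6 h was left out, and without both libraries that stood apart (log2 fold change 3.41, adjusted p = 0.27), with log2 fold changes of 2.83 to 3.45 over all alternatives and adjusted p of 6.1e-06 to 0.28.

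With CHIR99021, the ALK log2 fold change was 2.44 at 6 h (SE 0.49, 95% interval 1.32 to 3.55) and missed the threshold (edgeR adjusted p = 0.34, and 0.0075 to 1 over the alternatives, of which DESeq2 and the fit with no filter on low counts called it). At 18 h it was 5.25, or 37.9-fold, with the biological repeat as a block, the value by which the gene had come to notice. Without the block, as in the other comparisons with mTeSR1, it was 4.9, and the alternatives gave 4.86 to 5.59. Between the 18 h and 6 h libraries of CHIR99021 ALK differed by 2.81 on the log2 scale, with 2.43 to 3.12 over the alternatives. That value is also described without a test, since the 18 h libraries are those in which the gene came to notice. Between the 18 h and 6 h libraries of WNT3A the difference was 1.49 (SE 0.38, 95% interval 0.62 to 2.36, edgeR adjusted p = 0.17), and with the biological repeat as a block it was 1.47 and passed (adjusted p = 0.038, and 0.019 to 0.62 over the alternatives).

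ALK was not called between WNT3A and CHIR99021 at matched times. CHIR99021 minus WNT3A was -0.73 on the log2 scale at 6 h (95% interval -1.64 to 0.17, edgeR adjusted p = 0.69) and 0.60 at 18 h (95% interval -0.05 to 1.24, adjusted p = 1). The 18 h fit had the biological repeat as a block and the 6 h fit did not. With that block the 6 h difference was -0.74 (95% interval -1.4 to -0.08, edgeR unadjusted p = 0.033, adjusted p = 0.41). It was -0.72 within repeat 1 and -0.77 within repeat 2. All these intervals reach past a 2-fold difference in one direction, so likeness is not shown either. The 18 h value uses the CHIR99021 libraries in which ALK came to notice, so it is not independent of the choice of the gene. Their doses are of different kinds, a protein and a small molecule.

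LTK, the closest relative of ALK, was at the limit of detection and did not pass the filter on low counts. It had 5 and 0 counts after 6 h of WNT3A, 9 and 2 after 18 h of WNT3A, 0 and 1 after 6 h of CHIR99021, and 2 and 1 after 18 h of CHIR99021, against 1 and 0 in mTeSR1. The ratio of summed counts per total was 10.6 for WNT3A 18 h against mTeSR1, with an exact 95% counting interval of 1.55 to 458 that covers counting error only. It was 3.83 after 6 h of WNT3A (0.428 to 181) and 1.01 after 6 h of CHIR99021 (0.0129 to 79.6). After 18 h of CHIR99021 the ratio was 3.27, described without a test.

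The ALKAL ligands were low in all groups. ALKAL2, the only 1 of the pair above 1 CPM in any group, had 0.849 and 0.746 CPM after 6 h of WNT3A, 0.565 and 1.09 CPM after 18 h of WNT3A, 1.14 and 1.19 CPM after 6 h of CHIR99021, and 0.358 and 0.79 CPM after 18 h of CHIR99021, against 1.62 and 0.851 CPM in mTeSR1. Of this pair 0 were called in any of the 8 comparisons by edgeR or by DESeq2, and 0 had an unadjusted p under 0.05 in edgeR. Of all genes edgeR called 0% to 2.78% in these comparisons, so 0 of 2 says little.

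ERBB2 moved the other way. It had the highest level per kb of the 10 genes in every group. Its level was 799 and 798 CPM after 6 h of WNT3A, 499 and 387 CPM after 18 h of WNT3A, 776 and 617 CPM after 6 h of CHIR99021, and 492 and 344 CPM after 18 h of CHIR99021, against 1070 and 971 CPM in mTeSR1. Every treated library lay below both untreated ones, and the 18 h libraries of each compound lay below its 6 h libraries. ERBB2 fell after 18 h of WNT3A, to 443 ± 79.5 CPM against 1020 ± 70.2 CPM in mTeSR1 (SD, n = 2 each), a log2 fold change of -1.20 (SE 0.21, 95% interval -1.69 to -0.71, edgeR adjusted p = 0.029). The change was -1.10 within repeat 1 and -1.33 within repeat 2. Its call was lost without any 1 library of mTeSR1, WNT3A 18 h or CHIR99021 6 h, and without both libraries that stood apart (-1.27, adjusted p = 0.091), with -1.40 to -1.03 and adjusted p of 1e-05 to 0.24 over all alternatives.

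The ERBB2 log2 fold change after 6 h of WNT3A was -0.35, with a 95% interval of -0.84 to 0.13, and was not called by edgeR. At 6 h of CHIR99021 the ERBB2 log2 fold change was -0.55 (95% interval -1.03 to -0.07, edgeR adjusted p = 0.95), and at 18 h of CHIR99021 it was -1.18, described without a test. Between 18 h and 6 h ERBB2 differed by -0.85 with WNT3A (SE 0.21, edgeR adjusted p = 0.16) and by -0.62 with CHIR99021 (SE 0.19, adjusted p = 0.43). The WNT3A difference passed in DESeq2 and with no filter on low counts (adjusted p of 0.014 to 0.78 over the alternatives). Exons of ERBB2 overlap those of MIEN1 and PGAP3 on the other strand, and no label or header states the strand setting of the counts, so reads shared with these genes were not separated.

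EGFR, the receptor of EGF and TGFA, had 7.88 and 10.3 CPM after 6 h of WNT3A, 4.99 and 3.74 CPM after 18 h of WNT3A, 6.98 and 4.64 CPM after 6 h of CHIR99021, and 6.03 and 4.12 CPM after 18 h of CHIR99021, against 9.1 and 9.53 CPM in mTeSR1. All treated libraries but replicate 2 of WNT3A 6 h lay below both mTeSR1 libraries. Exons of the antisense gene EGFR-AS1 overlap those of EGFR, with the same limit on shared reads. The log2 fold change of -1.09 after 18 h of WNT3A (SE 0.30, 95% interval -1.78 to -0.40) missed the threshold (edgeR adjusted p = 0.13), and DESeq2 called it at an adjusted p of 0.039, with 0.039 to 0.56 over the alternatives. Against WNT3A 6 h the difference at 18 h was -1.05 (edgeR adjusted p = 0.22), and the change after 6 h of CHIR99021 was -0.68 (adjusted p = 0.95). With CHIR99021 at 18 h it was -0.82, described without a test.

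ERBB3, the neuregulin receptor with little kinase activity, spread more between repeats than between groups. It had 62.3 and 112 CPM after 6 h of WNT3A, 64.3 and 88.8 CPM after 18 h of WNT3A, 61.6 and 84.6 CPM after 6 h of CHIR99021, and 100 and 81.4 CPM after 18 h of CHIR99021, against 66.8 and 111 CPM in mTeSR1. The 95% interval of its log2 fold change after 18 h of WNT3A ran from -0.98 to 0.55, and from -0.53 to 0.16 with the biological repeat as a block. Exons of AC034102.2 overlap those of ERBB3 on the same strand.

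ERBB4, the other neuregulin receptor, did not pass the filter on low counts. It had 1 and 5 counts after 6 h of WNT3A, 16 and 6 after 18 h of WNT3A, 2 and 5 after 6 h of CHIR99021, and 8 and 5 after 18 h of CHIR99021, against 0 and 3 in mTeSR1. All 4 of the 18 h libraries lay above both untreated ones. The ratio of summed counts per total to mTeSR1 was 7.1 after 18 h of WNT3A (exact 95% counting interval 2.13 to 37.1). It was 1.53 after 6 h of WNT3A (0.327 to 9.46) and 2.37 after 6 h of CHIR99021 (0.54 to 14.2). These intervals leave out the spread between libraries. After 18 h of CHIR99021 the ratio was 4.72, described without a test.

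The 6 ligands of the ERBB family that were tested, out of 11 listed, gave 0 calls in any comparison by edgeR or by DESeq2. Over the 8 comparisons edgeR called 0% to 2.78% of all genes, so 0 calls in so short a list says little. At most 2 had an unadjusted p under 0.05 in edgeR, after 6 h of WNT3A and after 6 h of CHIR99021. Of all 15251 genes 939 and 723 had one there. NRG1, a ligand of ERBB3 and ERBB4, had 6.79 and 7.9 CPM after 6 h of WNT3A, 8.66 and 4.14 CPM after 18 h of WNT3A, 4.65 and 3.18 CPM after 6 h of CHIR99021, and 3.04 and 4.12 CPM after 18 h of CHIR99021, against 3.87 and 1.64 CPM in mTeSR1. All 4 WNT3A libraries lay above both mTeSR1 libraries, with edgeR adjusted p of 0.50 at 6 h and 0.29 at 18 h. EGF averaged 1.86 to 2.53 CPM in the treated groups and 2.80 CPM in mTeSR1, TGFA 0.972 to 1.93 CPM in the treated groups and 2.14 CPM in mTeSR1, HBEGF 2.07 to 3.04 CPM in the treated groups and 2.78 CPM in mTeSR1, and NRG3 3.62 to 4.69 CPM in the treated groups and 3.46 CPM in mTeSR1.

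KIT showed the same spread by repeat as ERBB3. It had 27 and 44.6 CPM after 6 h of WNT3A, 30.9 and 42.5 CPM after 18 h of WNT3A, 23.1 and 35.9 CPM after 6 h of CHIR99021, and 43.1 and 42.0 CPM after 18 h of CHIR99021, against 28.4 and 45.4 CPM in mTeSR1. Its log2 fold change after 18 h of WNT3A had a 95% interval of -0.75 to 0.73, and of -0.27 to 0.29 with the biological repeat as a block.

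Its ligand KITLG did change. KITLG had 29.7 and 29.5 CPM after 6 h of WNT3A, 37.4 and 29.8 CPM after 18 h of WNT3A, 16.1 and 13.0 CPM after 6 h of CHIR99021, and 20.7 and 32.4 CPM after 18 h of CHIR99021, against 8.16 and 7.03 CPM in mTeSR1. All treated libraries lay above both untreated ones. KITLG rose after 6 h of WNT3A by a log2 fold change of 1.96 (SE 0.25, edgeR adjusted p = 0.015) and after 18 h of WNT3A by 2.14 (SE 0.25, adjusted p = 0.0065), and it was 1.92 higher after 18 h of CHIR99021, described without a test. The 6 h call was lost without either mTeSR1 library and without both libraries that stood apart (1.86, adjusted p = 0.23), with 1.85 to 2.05 over all alternatives. At 18 h of WNT3A the range was 1.97 to 2.30, and the adjusted p stayed under the threshold in all 19.

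PDGFRA, a receptor of the platelet-derived growth factors, fell after 18 h of WNT3A. It had 1.7 and 3.22 CPM after 6 h of WNT3A, 0.895 and 0.863 CPM after 18 h of WNT3A, 1.89 and 2.32 CPM after 6 h of CHIR99021, and 1.97 and 1.07 CPM after 18 h of CHIR99021, against 3.92 and 4.82 CPM in mTeSR1. Every treated library lay below both untreated ones. The log2 fold change after 18 h of WNT3A was -2.30 (SE 0.44, 95% interval -3.31 to -1.30, edgeR adjusted p = 0.039), with -2.13 within repeat 1 and -2.48 within repeat 2. That call was lost when genes were counted per Ensembl identifier, without any 1 library of mTeSR1, WNT3A 18 h or CHIR99021 6 h, and without both libraries that stood apart (-2.15, adjusted p = 0.11), with adjusted p of 0.00098 to 0.25 over all alternatives. The change after 6 h of WNT3A was -0.82 (95% interval -1.75 to 0.1, edgeR adjusted p = 0.92). After 6 h of CHIR99021 the change was -1.05 (edgeR adjusted p = 0.95), after 18 h of CHIR99021 it was -1.72, described without a test, and between the WNT3A times it was -1.48 (adjusted p = 0.23). Exons of AC058822.1 overlap those of PDGFRA on the same strand.

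PDGFA, the main ligand of PDGFRA, had 31.7 and 35.7 CPM after 6 h of WNT3A, 40.9 and 31.4 CPM after 18 h of WNT3A, 20.2 and 14.9 CPM after 6 h of CHIR99021, and 22.1 and 28.4 CPM after 18 h of CHIR99021, against 23.0 and 33.4 CPM in mTeSR1. It was called in 0 of the 8 comparisons by edgeR and by DESeq2, and its unadjusted p in edgeR was under 0.05 in 2 of them. These were CHIR99021 6 h against WNT3A 6 h (log2 fold change -0.94, unadjusted p = 0.0046, edgeR adjusted p = 0.69) and CHIR99021 6 h against mTeSR1 (-0.68, unadjusted p = 0.024, adjusted p = 0.95). Of the other ligands, PDGFB averaged 0.521 to 1.24 CPM in the treated groups and 2.06 CPM in mTeSR1, PDGFC 1.76 to 3.21 CPM in the treated groups and 1.78 CPM in mTeSR1, and PDGFD 4.23 to 6.40 CPM in the treated groups and 6.02 CPM in mTeSR1.

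RET had 28.9 and 26.6 CPM after 6 h of WNT3A, 26.4 and 36.1 CPM after 18 h of WNT3A, 26.5 and 22.0 CPM after 6 h of CHIR99021, and 41.2 and 37.6 CPM after 18 h of CHIR99021, against 21.3 and 18.4 CPM in mTeSR1. Every treated library lay above both untreated ones, by small steps. The log2 fold change was 0.48 after 6 h of WNT3A (95% interval 0.05 to 0.92, edgeR adjusted p = 0.69) and 0.65 after 18 h of WNT3A (95% interval 0.22 to 1.09, adjusted p = 0.15). That at 18 h was 0.31 within repeat 1 and 0.97 within repeat 2. With CHIR99021 at 18 h it was 1.00, described without a test, and 0.72 against CHIR99021 6 h (SE 0.20, adjusted p = 0.37).

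Of the 8 ligands and co-receptors of RET, 7 were tested and 0 were called by edgeR in any comparison. At most 1 had an unadjusted p under 0.05 in each. Of all genes edgeR called 0% to 2.78%, so 0 of 7 says little. GDNF had 12 and 24 counts after 6 h of WNT3A, 42 and 20 after 18 h of WNT3A, 12 and 11 after 6 h of CHIR99021, and 12 and 47 after 18 h of CHIR99021, against 5 and 1 in mTeSR1. All treated libraries lay above both untreated ones, and after 18 h of WNT3A the edgeR adjusted p was 0.11 while DESeq2 called GDNF, the 1 gene of this list that it called. NRTN averaged 2.94 to 4.78 CPM in the treated groups and 3.18 CPM in mTeSR1, ARTN 2.74 to 5.84 CPM in the treated groups and 4.83 CPM in mTeSR1, and PSPN 2.44 to 3.05 CPM in the treated groups and 2.04 CPM in mTeSR1. The co-receptor GFRA1 averaged 1.40 to 3.06 CPM in the treated groups and 2.02 CPM in mTeSR1, GFRA2 1.58 to 3.05 CPM in the treated groups and 2.39 CPM in mTeSR1, and GFRA3 1.16 to 1.99 CPM in the treated groups and 1.06 CPM in mTeSR1.

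IGF1R had 174 and 344 CPM after 6 h of WNT3A, 156 and 180 CPM after 18 h of WNT3A, 154 and 160 CPM after 6 h of CHIR99021, and 189 and 162 CPM after 18 h of CHIR99021, against 142 and 264 CPM in mTeSR1. The highest values were those of the 2 libraries whose deviations rose with transcript length, and the longest coding transcript of IGF1R has 12.23 kb. The part of that skew in its level was not tested. For WNT3A at 18 h the 95% interval of its log2 fold change ran from -1.05 to 0.51, and from -0.73 to 0.31 with the biological repeat as a block. Of the IGF ligands and binding proteins, 8 of 11 were tested and 0 were called in any comparison by edgeR or by DESeq2. Of all genes edgeR called 0% to 2.78%, so 0 of 8 says little. At most 3 had an unadjusted p under 0.05 in edgeR, after 18 h of WNT3A, against 2076 of all 15251 genes. IGF2 averaged 0.564 to 1.82 CPM in the treated groups and 1.96 CPM in mTeSR1.

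Counts of calls over the 10 genes, of which 8 were tested, are set here beside the share of all 15251 genes called. After 6 h of WNT3A 1 gene was called, ALK, against 0.433% of all genes. WNT3A at 18 h gave 3 calls, ALK higher and ERBB2 and PDGFRA lower, against 2.1% of all genes. After 6 h of CHIR99021 0 were called, against 0.0197% of all genes, and DESeq2 called 1. An unadjusted p under 0.05 in edgeR was found there for 4 of the 8, against 723 of all 15251 genes. For CHIR99021 at 18 h the same threshold would mark 3, ALK and RET higher and ERBB2 lower, against 2.78% of all genes; that comparison entered the choice of the list, so this count is a description and no test. Between the WNT3A times 0 were called, against 0.144% of all genes, and DESeq2 called 2, against 415 of 15251 genes. ALK, EGFR, ERBB2 and PDGFRA had an unadjusted p under 0.05 in edgeR there, among 2017 of all 15251 genes. The other 3 comparisons also gave 0 calls among the 8. CHIR99021 6 h against WNT3A 6 h had 0.00656% of all genes called. There 0 of the 8 had a call in DESeq2, against 30 of 15251 genes. In the edgeR fit without the block 0 had an unadjusted p under 0.05, against 996 of all 15251 genes. With the biological repeat as a block the unadjusted p in edgeR was 0.033 for ALK, 0.049 for EGFR and 0.021 for IGF1R. That fit called 0 of the 8, against 3 of 15251 genes. CHIR99021 18 h against CHIR99021 6 h had 0.00656% of all genes called. An unadjusted p under 0.05 in edgeR was found for 3 of the 8, against 1045 of all 15251 genes. Of the 3, DESeq2 called 1, ALK, among 131 of all 15251 genes. The 18 h libraries are those in which ALK came to notice, so these counts are a description and no test. CHIR99021 18 h against WNT3A 18 h had 0% of all genes called, where 629 genes had an unadjusted p under 0.05 in edgeR and DESeq2 called 10, with 0 of the 8 among either. The median log2 fold change of the 8 genes after 18 h of WNT3A was -0.24, against 0.02 over all genes.

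**Figure D2:**
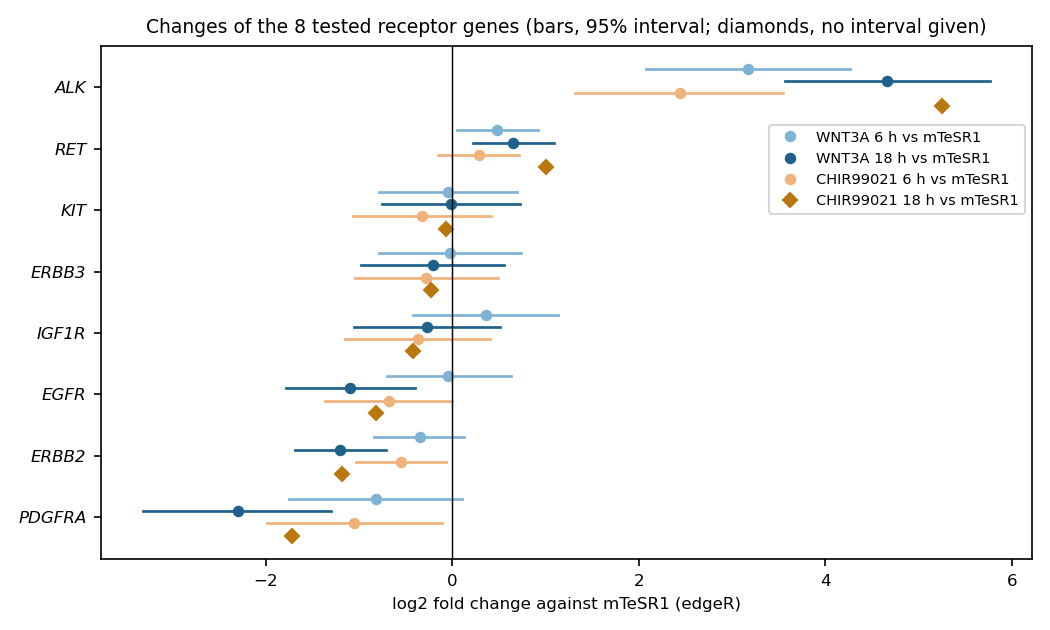
Log2 fold change against mTeSR1 of the 8 genes tested, with 95% intervals from edgeR for 3 comparisons and diamonds with no interval for CHIR99021 18 h. Only the CHIR99021 18 h values come from a fit with the biological repeat as a block. ALK lies to the right of 0 in all 4 comparisons, from 2.44 to 5.25, and the points of ERBB2 and PDGFRA lie to the left. The intervals of KIT, ERBB3 and IGF1R cross 0, as do those of ERBB2 and PDGFRA after 6 h of WNT3A.

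Levels can be set side by side only per transcript length. In CPM per kb of the longest coding transcript, the order in mTeSR1 was ERBB2 (213), IGF1R (16.6), ERBB3 (15), KIT (7.12), RET (3.51), EGFR (0.948), PDGFRA (0.665), ALK (0.0656), LTK (0.00859) and ERBB4 (0.00701). The library values of IGF1R and ERBB3 overlapped, as did those of LTK and ERBB4, so these neighbours do not differ beyond their spread. The order was the same with total exon length in place of transcript length. Among 58 human receptor tyrosine kinase genes ERBB2 stood at rank 1 in mTeSR1 with 23.8% of the summed level per kb, and ALK stood at rank 49.

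After treatment the places of ALK and ERBB2 moved within that order. ALK reached 1.69 CPM per kb and rank 32 after 18 h of WNT3A and 1.99 CPM per kb and rank 31 after 18 h of CHIR99021, above both EGFR and PDGFRA in all 4 libraries. ERBB2 had 92.5 CPM per kb, 12.4% of the sum, after 18 h of WNT3A and 87.2 CPM per kb, 11.5% of the sum, after 18 h of CHIR99021, and stood at rank 2 in both. The receptor at rank 1 by group means there was FGFR1, a receptor of FGF2, at 108 and 96.8 CPM per kb after 18 h of WNT3A and 98.1 and 110 CPM per kb after 18 h of CHIR99021, against 108 and 87.6 CPM per kb in mTeSR1. ERBB2 had 104 and 80.8 CPM per kb after 18 h of WNT3A and 103 and 71.7 CPM per kb after 18 h of CHIR99021, against 223 and 203 CPM per kb in mTeSR1. At 18 h the library values of FGFR1 and ERBB2 overlapped, so ranks 1 and 2 do not differ beyond the spread there.

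**Figure D3:**
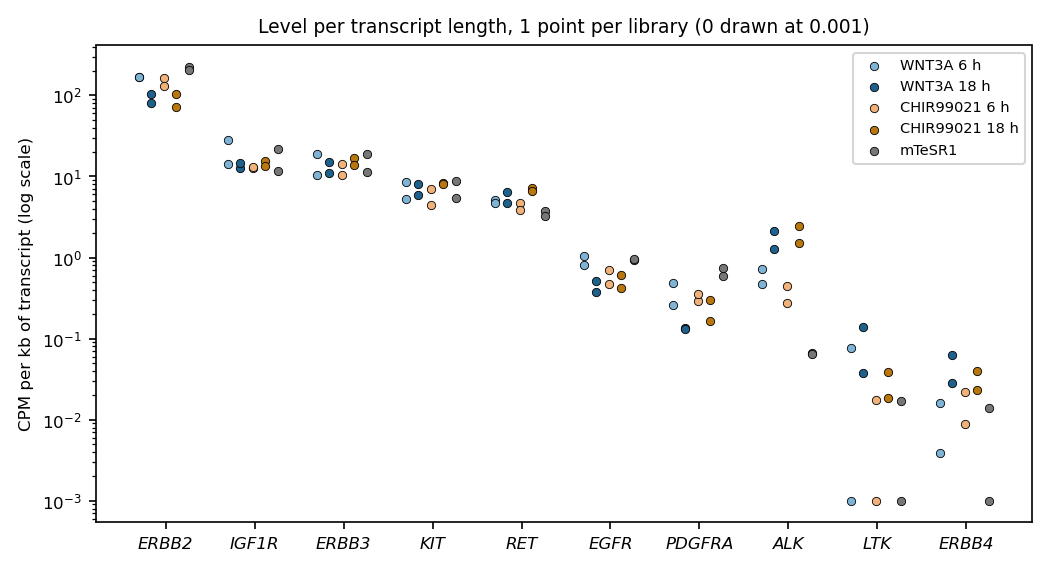
Level of each gene in CPM per kb of its longest coding transcript, on a log axis, with 1 point per library and groups in colour (0 drawn at 0.001). ERBB2 is highest in all libraries, and ALK lies above EGFR and PDGFRA after 18 h of either treatment and below both in mTeSR1.

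Adaptors carry the signal of these receptors inward, and negative regulators hold it back. Of 24 listed adaptors 23 were tested, and edgeR called 1 of the 23 after 6 h of WNT3A, against 0.433% of all genes, and 1 after 18 h of WNT3A, against 2.1% of all genes. Both calls were of PIK3R1, which encodes the regulatory p85-alpha subunit of PI3K. DESeq2 called IRS4 as well after 6 h of WNT3A, among 249 of 15251 genes. It called PIK3R1 between CHIR99021 and WNT3A at 6 h, among 30 of 15251 genes. PIK3R1 had 56.1 and 88.9 CPM after 6 h of WNT3A, 90.9 and 67.9 CPM after 18 h of WNT3A, 35.5 and 29.9 CPM after 6 h of CHIR99021, and 54.8 and 68.6 CPM after 18 h of CHIR99021, against 12.7 and 18.0 CPM in mTeSR1. PIK3R1 rose after 6 h of WNT3A (log2 fold change 2.24, SE 0.28, edgeR adjusted p = 0.015) and after 18 h of WNT3A (2.37, SE 0.28, adjusted p = 0.0073), and was 1.96 higher after 18 h of CHIR99021, described without a test. The 6 h call was lost without either mTeSR1 library and without both libraries that stood apart (2.13, adjusted p = 0.077). The 18 h call was lost without replicate 1 of mTeSR1 (adjusted p = 0.053), and the change was 2.84 within repeat 1 and 1.92 within repeat 2.

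All 17 listed negative regulators were tested, and edgeR called 0 after 6 h of WNT3A, against 0.433% of all genes. DESeq2 called ERRFI1 there, among 249 of 15251 genes. In edgeR 5 of the 17 had an unadjusted p under 0.05, against 939 of all 15251 genes. After 18 h of WNT3A edgeR called 1 higher and 1 lower, against 2.1% of all genes, and DESeq2 called CBLB as well. GRB14, an adaptor that binds and holds back the insulin receptor, had 10.2 and 13.0 CPM after 6 h of WNT3A, 19.4 and 21.5 CPM after 18 h of WNT3A, 11.6 and 13.9 CPM after 6 h of CHIR99021, and 21.7 and 35.8 CPM after 18 h of CHIR99021, against 5.7 and 6.24 CPM in mTeSR1. It rose after 18 h of WNT3A (log2 fold change 1.78, SE 0.27, edgeR adjusted p = 0.015) and was 2.16 higher after 18 h of CHIR99021, described without a test. ERRFI1, an inhibitor that binds the kinase domains of the ERBB receptors, had 20.6 and 22.9 CPM after 6 h of WNT3A, 21.0 and 24.5 CPM after 18 h of WNT3A, 28.0 and 30.0 CPM after 6 h of CHIR99021, and 30.3 and 15.9 CPM after 18 h of CHIR99021, against 52.7 and 59.0 CPM in mTeSR1. It fell after 18 h of WNT3A (log2 fold change -1.30, SE 0.27, edgeR adjusted p = 0.049) and was at -1.35 after 18 h of CHIR99021, described without a test. Both WNT3A calls were lost without any 1 library of mTeSR1 or WNT3A 18 h and without both libraries that stood apart, with adjusted p of 7.2e-07 to 0.098 for GRB14 and 4e-04 to 0.25 for ERRFI1. That of ERRFI1 was also lost without either CHIR99021 6 h library and per Ensembl identifier. CBLB, a ubiquitin ligase that marks active receptors for removal, had 18.7 and 17.1 CPM after 18 h of WNT3A, against 29.5 and 36.1 CPM in mTeSR1. That log2 fold change was -0.87 and missed the threshold (edgeR adjusted p = 0.065). After 18 h of CHIR99021 CBLB had 18.9 and 17.3 CPM, described without a test.

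**Figure D4:**
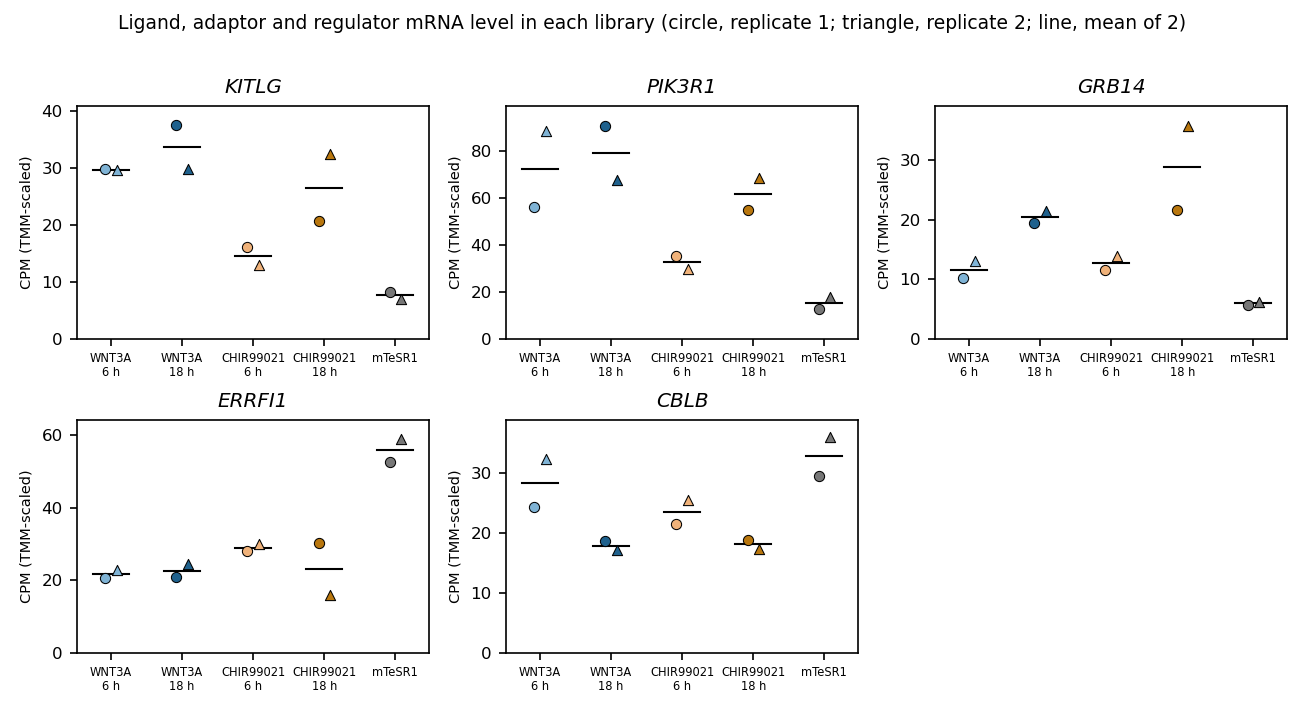
Level in CPM (linear axes from 0) of ligand, adaptor and regulator genes, with 1 point per library and a line at the mean of 2. KITLG, PIK3R1, GRB14 and ERRFI1 were called by edgeR after WNT3A. CBLB is drawn in all 5 groups and was not called by edgeR after WNT3A. It was included for CHIR99021 18 h against mTeSR1, described without a test. KITLG, PIK3R1 and GRB14 are lowest in mTeSR1 and ERRFI1 is highest there, at 52.7 and 59.0 CPM.

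For each gene the most similar profile over the 10 libraries was taken as the smallest root mean square difference of log2 CPM, centred on the mean of the gene. The 5 nearest to ALK were SP8 (0.36), FOXA2 (0.54), EGFLAM (0.57), FBXL13 (0.59) and HOXB1 (0.68), where the SD of ALK itself was 1.68 on that scale. SP8, which encodes a zinc finger transcription factor, had 28.3 and 15.5 CPM after 6 h of WNT3A, 84.5 and 54.6 CPM after 18 h of WNT3A, 13.8 and 11.9 CPM after 6 h of CHIR99021, and 31.0 and 69.1 CPM after 18 h of CHIR99021, against 4.03 and 3.12 CPM in mTeSR1. As with ALK, replicate 1 was the higher of the pair after 18 h of WNT3A and replicate 2 after 18 h of CHIR99021. The nearest profiles to the other 7 tested genes were UNC13A for EGFR (0.14), SEC14L5 for ERBB2 (0.11), ZNF525 for ERBB3 (0.09), KDM6A for KIT (0.10), MVK for RET (0.18), NLGN4X for PDGFRA (0.19) and PRPF8 for IGF1R (0.06). The libraries share their depth and repeat across genes, so these distances are descriptions.

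FOXA2 is 1 of 6 markers listed for endoderm, and the sum of those markers, like ALK, was higher in every treated library than in mTeSR1: 4.72 and 9.62 CPM after 6 h of WNT3A, 6.69 and 12.6 CPM after 18 h of WNT3A, 3.03 and 4.8 CPM after 6 h of CHIR99021, and 5.67 and 11.2 CPM after 18 h of CHIR99021, against 1.2 and 1.53 CPM in mTeSR1. Within both WNT3A groups and CHIR99021 6 h, ALK was higher in replicate 1 and the sum in replicate 2. FOXA2, named here for its likeness to ALK, gave 4.33 and 6.62 CPM of that sum after 18 h of WNT3A, against 0.209 and 0.511 CPM in mTeSR1. At least 1 CPM on average was reached by 4 of 6 after 6 h of WNT3A, by 3 of 6 in each other treated group and by 0 of 6 in mTeSR1. SOX17 had 0 counts in all groups but WNT3A 6 h, and GATA6 had 0 counts after 6 h of CHIR99021. The part of such cells in the level of ALK was not tested. In bulk RNA, fewer cells of a type and less RNA per cell cannot be told apart.

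Markers of 6 other cell types were also summed. The 6 fibroblast markers gave 131 and 140 CPM after 6 h of WNT3A, 183 and 179 CPM after 18 h of WNT3A, 83.7 and 96.2 CPM after 6 h of CHIR99021, and 115 and 144 CPM after 18 h of CHIR99021, against 80.2 and 122 CPM in mTeSR1, with DCN at 0 counts in every group. The 6 mesoderm markers summed to at most 1.92 CPM in the treated libraries and 2.09 CPM in mTeSR1, with FOXF1 at 0 counts in every group. The neural crest sums were 46.7 to 86.2 CPM in the treated libraries and 74.7 and 83.7 CPM in mTeSR1, the neural sums 211 to 338 CPM in the treated libraries and 341 and 269 CPM in mTeSR1, the amnion and trophoblast sums 14.2 to 20.9 CPM in the treated libraries and 17.7 and 15.1 CPM in mTeSR1, and the blood and endothelial sums 1.38 to 2.83 CPM in the treated libraries and 3.19 and 1.87 CPM in mTeSR1. Their part in the levels of the 10 genes was not tested.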

How the data were processed

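Paired-end RNA sequencing of poly-A RNA from 10 libraries was used. The authors deposited estimated counts per gene, made with Salmon 1.8.0 on GRCh38 per the submitters' processing notes. The transcript set, gene summary, filters and strand setting are stated in no source used here. The counts of 37951 identifiers were summed to 35940 symbols and rounded. Tests used edgeR 4.0.16 in R 4.3.3: TMM scaling (factors 0.953 to 1.03), genes filtered at 10 counts a library and 15 in total, leaving 15251, a robust quasi-likelihood fit of all 10 libraries, and Benjamini-Hochberg adjustment over all genes, with calls at an adjusted p under 0.05. The biological repeat was a block in the 3 comparisons with CHIR99021 18 h only. P-values rest on the spread between the 2 libraries of a group, pooled over all 5 groups and shared in part across genes. Exact permutation of 2 against 2 could not reach 0.05 and was not used. Alternatives were DESeq2 1.42.0, other scaling and filters, the block, each library left out, and each repeat alone.

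Members and lists were chosen with earlier results of these data known. The text names all 10 members, genes of the fixed lists (other receptor tyrosine kinases, ligands and co-receptors, adaptors, negative regulators) called in at least 1 comparison, ligands and co-receptors above 1 CPM in a group, and the nearest profiles. CBLB and AXL entered only through CHIR99021 18 h against mTeSR1, which is described without a test. Coordinates, lengths and overlaps are from GENCODE on GRCh38, and start-site windows from RefSeq (GRCh38.p14). The fit was tested on simulated data. The series' design text states the repeats, and deviations of same-numbered libraries correlated over 6 pairs of groups with Pearson coefficients of 0.261 to 0.595. No replicate pair agreed within sampling noise (chi-square per degree of freedom 12.4 to 101). Intervals on summed counts and the floor of 3 counts cover counting error only.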

Additional observations from a re-analysis of the deposited data

How the results depend on the processing

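Alternative runs were tallied for ALK in all comparisons, for other members where the unadjusted p in edgeR was under 0.05, and for list genes where edgeR called them. None of these log2 fold changes changed sign. The tally takes in CHIR99021 18 h against mTeSR1, the comparison that entered the choice of the list. It is therefore a description and no test. The other fold changes were not tallied, and that of KIT after 18 h of WNT3A was -0.01, and 0.01 with the biological repeat as a block. Of the alternative values of the tallied fold changes, 745 stayed on their side of the threshold or within the spread, 149 lost a call, 12 gained one and 21 moved. With 1 library left out, the number of the 10 genes called was 0 to 1 after 6 h of WNT3A, 1 to 3 after 18 h of WNT3A, 1 to 3 after 18 h of CHIR99021, and 0 to 1 for CHIR99021 18 h against 6 h. Without both libraries whose deviations rose with transcript length, an alternative chosen after seeing the data, these counts were 0, 1, 1 and 1, and the gene called was ALK. With no filter on low counts 1 gene was called after 6 h of CHIR99021, 2 between the WNT3A times and 1 between the CHIR99021 times, and DESeq2 gave the same counts of 1, 2 and 1. With the biological repeat as a block 1 gene, ALK, was called between the WNT3A times. The block or its removal ended or gained no other call of the 10 genes in the 7 comparisons other than CHIR99021 18 h against mTeSR1. Counts for that one, and for CHIR99021 18 h against CHIR99021 6 h, are descriptions and no test.

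Over all genes the block gave 168 calls after 6 h of WNT3A against 66 without it, 751 against 320 after 18 h of WNT3A, 21 against 3 after 6 h of CHIR99021, 279 against 22 between the WNT3A times and 3 against 1 between the compounds at 6 h. Removing it gave 181 against 424 after 18 h of CHIR99021. DESeq2 gave 249, 808, 65, 415, 30, 923, 131 and 10 calls in the order of WNT3A 6 h, WNT3A 18 h and CHIR99021 6 h against mTeSR1, the WNT3A times, the compounds at 6 h, CHIR99021 18 h against mTeSR1, the CHIR99021 times and the compounds at 18 h. The causes were not tested. Depth limits LTK and ERBB4, which had at most 9 and 16 counts in a library.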

Other observations

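Of the 48 other human receptor tyrosine kinase genes, 41 were tested. After 6 h of WNT3A edgeR called 1, against 0.433% of all genes, and DESeq2 called 2, against 249 of 15251 genes. The gene called by edgeR was EPHA4, an ephrin receptor, which rose to 48.6 and 54.8 CPM after 6 h of WNT3A, against 17.1 and 11.4 CPM in mTeSR1 (log2 fold change 1.86, edgeR adjusted p = 0.043). After 18 h of WNT3A 1 rose and 3 fell in edgeR, against 2.1% of all genes, and DESeq2 called 9. Between the WNT3A times edgeR called 0, against 0.144% of all genes, and DESeq2 called 7, against 415 of 15251 genes. Of the 41, 14 had an unadjusted p under 0.05 in edgeR there, against 2017 of all 15251 genes. ROR2, a WNT5A receptor, had 60.0 and 28.6 CPM after 18 h of WNT3A, against 5.65 and 8.17 CPM in mTeSR1 (2.68, edgeR adjusted p = 0.031). The ephrin receptor EPHB1 had 5.79 and 3.8 CPM after 18 h of WNT3A, against 14.2 and 12.8 CPM in mTeSR1 (-1.49, adjusted p = 0.03), and its relative EPHB6, which lacks kinase activity, 16.3 and 12.4 CPM after 18 h of WNT3A, against 36.9 and 43.1 CPM in mTeSR1 (-1.48, adjusted p = 0.048). TYRO3, a receptor of the TAM family, had 79.2 and 65.3 CPM after 18 h of WNT3A, against 125 and 138 CPM in mTeSR1 (-0.87, adjusted p = 0.036). Each of these 5 calls was lost without either mTeSR1 library and without either library of its own WNT3A group, and the adjusted p reached 0.5 for EPHA4 and 0.21 to 0.32 for the others.

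After 18 h of CHIR99021, described without a test, EPHB1 had 5.55 and 5.92 CPM, EPHB6 18.4 and 10.6 CPM, TYRO3 81.5 and 71.5 CPM, and the TAM receptor AXL 28.5 and 22.1 CPM, against 53.3 and 83.2 CPM for AXL in mTeSR1. The summed level of all 58 receptor tyrosine kinase genes was 837 CPM per kb after 6 h of WNT3A, 744 after 18 h of WNT3A, 750 after 6 h of CHIR99021 and 755 after 18 h of CHIR99021, against 894 CPM per kb in mTeSR1.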
